A study of Mus musculus with 6 samples.

Results

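Chemokines and their receptors were examined in PDGFRα+ cells of the embryonic mouse body wall, sorted by whether a fluorescent reporter of Ebf2 was on or off. The set held 55 genes, 34 ligands and 21 receptors, of the 22180 genes that had a probe set listing no other gene. Members were chosen by symbol alone (Ccl, Cxcl, Cx3cl1 and Xcl1 for ligands, Ccr, Cxcr, Cx3cr1, Xcr1 and Ackr for receptors), measured values being used only to pick 1 probe set per gene. Of 62 RefSeq symbols that match these forms, 7 had no probe set of their own in the platform table and were not analysed here. Ccl27a was the only member with several probe sets, and the brighter was used.

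RNA of 6 cell samples was hybridised to Affymetrix arrays, which limits the precision to that of 3 arrays per group. All samples came from the dorsal body wall of 129SV embryos at stage E14.5 with the genotype Ebf2(GFP)/+, from mice housed at 20 °C. Cells were freed with collagenase and dispase and sorted without culture. Every sample was PDGFRα+, and a gate on GFP gave 3 Ebf2(GFP)+ samples and 3 Ebf2(GFP)- samples, called GFP-positive and GFP-negative here. How the reporter allele was made, how many embryos entered a sample and whether replicates came from separate litters were not stated in the labels. The p-values set the difference between the groups against the scatter within them, and that scatter may be only technical variation. Values are log2 levels, comparable between arrays for 1 gene but not between genes. Changes are GFP-positive minus GFP-negative with limma's standard error, and group spreads are SD over 3 arrays. A gene is said to pass, to rise or to fall where limma's p, adjusted by Benjamini-Hochberg over the 22180 genes, was under 0.05.

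Chemokines act through G protein-coupled receptors and draw cells along a gradient of ligand bound to the matrix. Homeostatic chemokines are made steadily by stromal cells and set where cells settle in a tissue, whereas inflammatory chemokines are induced in stromal cells and macrophages by cytokines, microbial products or injury. Atypical receptors bind chemokines without the usual G protein signal and shape the gradient by uptake or transport.

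The sort was visible in Ebf2 itself, at 8.16, 8.60 and 9.21 in GFP-negative and 12.04, 12.04 and 11.93 in GFP-positive samples, a rise of 3.35 ± 0.241 (adjusted p = 0.000916). Its dimmer probe set changed by 0.03 (adjusted p = 0.8225). Pdgfra, shared by both gates, lay at 12.97, 12.97 and 12.90 against 13.24, 13.10 and 13.07 (0.19 ± 0.0638, adjusted p = 0.178). None of the 9 mesenchymal fibroblast markers was below the dim mark, the 40th percentile of gene means at log2 6.78, on every array.

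Among the 55 chemokine genes, 11 were lower and 3 higher in GFP-positive cells. The genes that fell were Cxcl14, Cxcl16, Ccl2, Ccl7, Ccl9, Ccl24, Ccl3, Ccl4, Cxcl2, Cx3cr1 and Ccr1, and the genes that rose were Cxcl13, Ccl11 and Cxcl9. The lower calls were 20.0% of the members against 3.84% of all genes, and the higher calls 5.45% against 2.65%. The median change of the members was −0.09, against 0.02 over all genes. The groups' arrays did not overlap in 18 members with lower values (32.7%, against 9.78% of all genes) and in 5 with higher values (9.09%, against 12.3%). Of the 41 members that did not pass, 10 had an unadjusted p under 0.05. The share of all genes that did so was not computed, so this count has no comparison. With the replicate number as a block the counts were 12 lower (21.8%, against 5.49%) and 6 higher (10.9%, against 4.55%). The 4 members gained were Ccl6 among the lower and Cxcl12, Cxcr4 and Ackr4 among the higher, and the 14 others passed in both fits. Centring each array on its median gave 11 lower members (20.0%, against 3.38% of all genes) and 5 higher ones (9.09%, against 3.91%). Over all genes it moved the higher share of the calls from 40.9% to 53.7% and the median change from 0.02 to 0.07. Without GFP-negative replicate 1 or without GFP-positive replicate 2 the lower count was 5, and without GFP-positive replicate 1 or 3 it was 7. Over all genes the lower count of 851 became 578 without GFP-negative replicate 1. It became 388, 407 and 456 without GFP-positive replicates 1, 2 and 3 in that order.

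Many members were dim. A total of 27 members lay below the dim mark on all 6 arrays, 14 of 34 ligands and 13 of 21 receptors, and 8177 of all 22180 genes did so. Of the 28 members with both group means below the mark, only Ccr1 passed. How many of all such genes passed was not counted. The deposited values carry no detection calls.

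**Figure D1:**
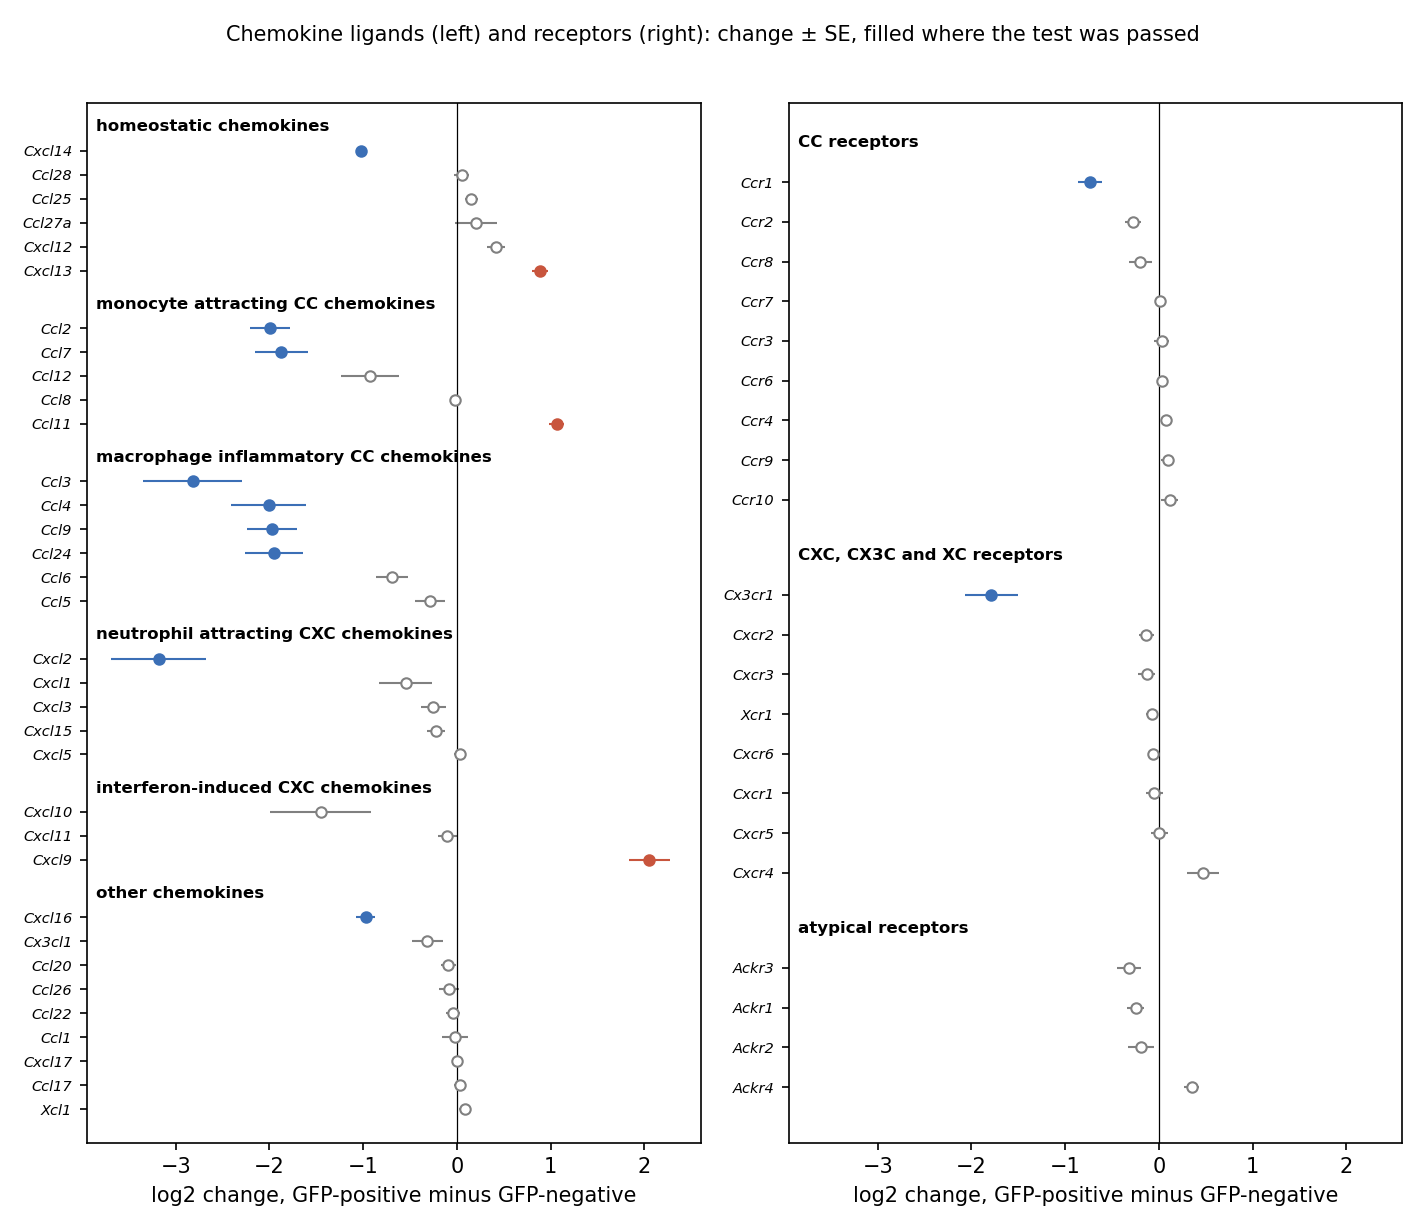
Log2 change (GFP-positive minus GFP-negative, horizontal axis) with limma's standard error for each of the 55 chemokine genes, grouped by role and filled where the adjusted p was under 0.05. The 11 genes that fell spread from −3.18 for Cxcl2 to −0.73 for Ccr1, and the 3 that rose lie between 0.89 and 2.05.

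Macrophage markers moved with many of these genes and are given first. Of 22 macrophage markers, 19 fell and none rose, with a median change of −1.73. The log2 of their summed level ran from 14.28 to 15.21 in GFP-negative and from 12.04 to 12.93 in GFP-positive samples. Their mean level was 9.32, 8.86 and 9.68 in GFP-negative replicates 1, 2 and 3 and 6.99, 7.60 and 7.81 in GFP-positive replicates 1, 2 and 3, so that GFP-negative replicate 2 and GFP-positive replicate 1 were the lowest of their groups. Csf1r, the receptor of the macrophage growth factor, was at 11.32, 10.51 and 11.60 against 7.65, 8.41 and 8.84 (−2.84 ± 0.372, adjusted p = 0.00766). Adgre1, an adhesion receptor of macrophages, was at 10.30, 9.59 and 10.82 against 6.08, 6.98 and 7.70 (−3.31 ± 0.459, adjusted p = 0.00923). Mertk, Cd163 and Timd4 did not pass, and Cd163 and Timd4 were below the dim mark on all 6 arrays. The calls of Csf1r, Adgre1, Aif1, Fcer1g and Laptm5 held without each array in turn (adjusted p up to 0.0493). Every other call of the list ended without at least 1 array, and those of Cd68 and Spi1 ended whichever was left out. All samples had been gated on PDGFRα. In such bulk samples, fewer cells of a type and less RNA per cell cannot be told apart.

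The same pair of arrays, GFP-negative replicate 2 and GFP-positive replicate 1, was the lowest of its group in 8 of the 11 chemokine genes that fell (72.7%): Ccl2, Ccl7, Ccl9, Ccl24, Ccl3, Ccl4, Cxcl2 and Cx3cr1. It was so in 0 of the 3 that rose, in 6 of the 41 that did not pass (14.6%), in 25.9% of all 851 genes that fell and in 8.38% of all genes. The part of the macrophage markers in these changes was not tested.

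**Figure D2:**
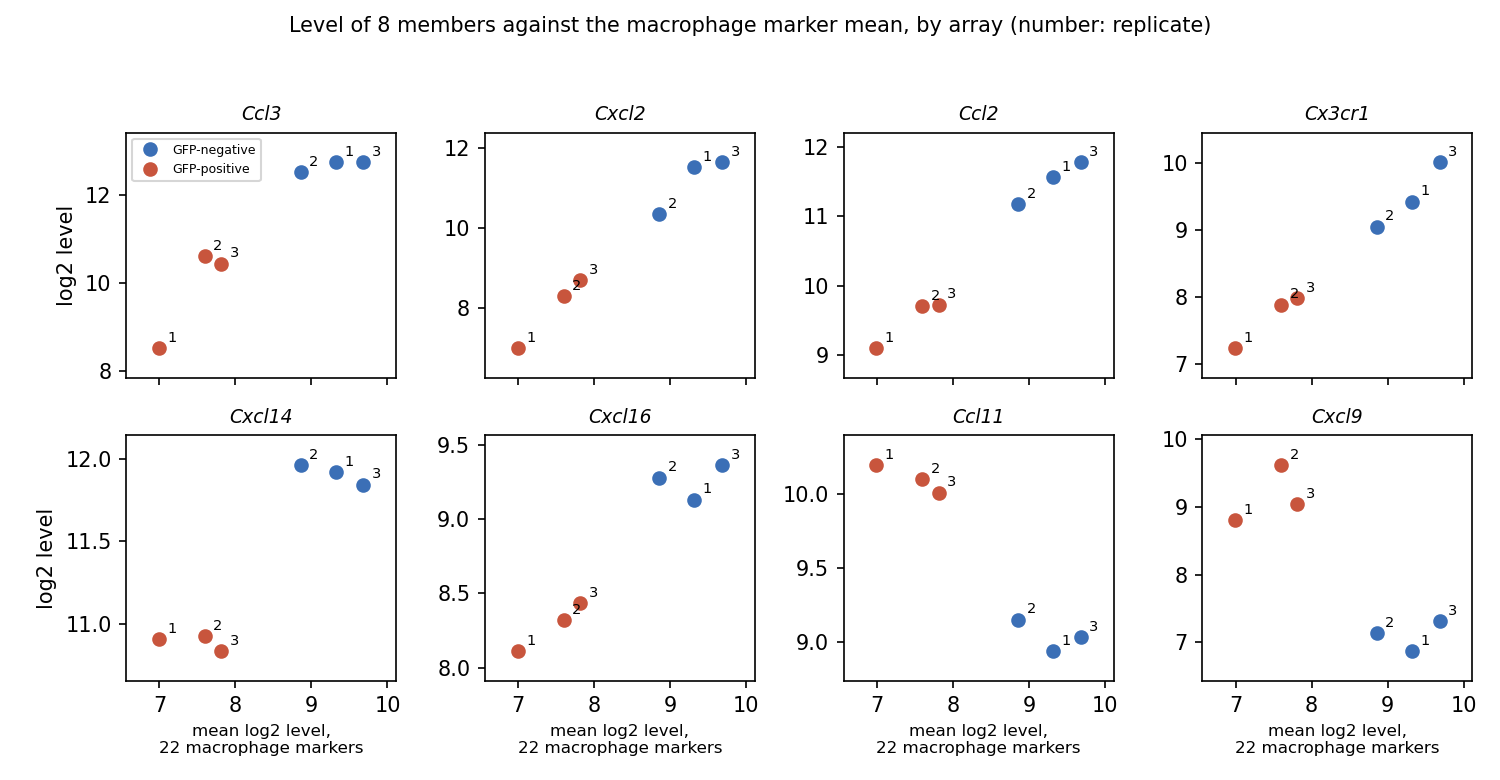
Log2 level of 8 chemokine genes (vertical axes, each with its own range) against the mean log2 level of 22 macrophage markers (horizontal axis), 1 point per array with its replicate number. In the upper row, Ccl3, Cxcl2, Ccl2 and Cx3cr1 have their lowest points of each group at GFP-negative replicate 2 and GFP-positive replicate 1, and in the lower row Cxcl14, Cxcl16, Ccl11 and Cxcl9 do not share that order.

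The measured homeostatic chemokines split in direction. Of 12 on the list, 6 were measured. Ccl19, Ccl21a, Ccl21b, Ccl21c, Ccl21d and Ccl27b had no probe set of their own. Of the 6 measured, 1 fell (Cxcl14), 1 rose (Cxcl13) and 4 did not pass. Cxcl14, a chemokine made steadily in skin and connective tissue, was at 11.92, 11.96 and 11.84 in GFP-negative and 10.91, 10.92 and 10.83 in GFP-positive samples. All 3 GFP-positive arrays lay below all GFP-negative ones, with a spread of 0.0591 and 0.0486 (SD, n = 3) around means of 11.91 and 10.89. The change was −1.02 ± 0.0572, 2.03-fold lower, with an adjusted p of 0.000422, the smallest among the members. GFP-negative replicate 3 and GFP-positive replicate 3 were its lowest arrays.

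Cxcl13, which draws B cells through the receptor Cxcr5, was at 11.87, 11.82 and 12.02 in GFP-negative and 12.89, 12.66 and 12.83 in GFP-positive samples. The groups did not overlap, and the gene rose by 0.89 ± 0.0843 (1.85-fold, adjusted p = 0.00228). Cxcl12, the ligand of Cxcr4 that guides migrating and blood-forming cells, was at 11.90, 11.55 and 11.69 against 12.20, 12.06 and 12.12. Its groups did not overlap either, but the change of 0.42 ± 0.0957 missed the threshold (adjusted p = 0.0548). With the replicate block it passed (0.0185), as it did without GFP-negative replicate 1 (0.0274). It also passed with median centring (0.0395), without dim genes (0.0388), with an eBayes trend (0.037) and with array weights (0.0333). It did not pass with quantile normalization, averaged probe sets, a robust eBayes or any other array left out. Ccl25, Ccl27a and Ccl28, known from thymus, skin and mucosa in that order, changed by 0.15, 0.20 and 0.05 with overlapping arrays (adjusted p 0.349, 0.717 and 0.815). The dimmer probe set of Ccl27a, a gene with near-identical copies, changed by −0.05.

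The 250 bases before the start of the homeostatic genes that moved in opposite directions are shown from RefSeq, assembly GRCm38.p6, 5′ to 3′ on the strand of the gene. Cxcl13 lies at chr5:95956689-95956938 on the plus strand and Cxcl14 at chr13:56296552-56296801 on the minus strand. Capitals mark motif matches on either strand: the TATA box TATAAA in Cxcl13, 46 bases before the start, and the interferon-stimulated response element (GAAA, any 2 bases and GAAA again) in Cxcl14, 172 bases before it.
Cxcl13: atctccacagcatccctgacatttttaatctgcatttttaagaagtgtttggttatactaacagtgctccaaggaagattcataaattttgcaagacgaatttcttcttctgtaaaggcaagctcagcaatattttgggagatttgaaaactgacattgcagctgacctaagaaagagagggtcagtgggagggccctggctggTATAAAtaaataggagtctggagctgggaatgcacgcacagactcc
Cxcl14: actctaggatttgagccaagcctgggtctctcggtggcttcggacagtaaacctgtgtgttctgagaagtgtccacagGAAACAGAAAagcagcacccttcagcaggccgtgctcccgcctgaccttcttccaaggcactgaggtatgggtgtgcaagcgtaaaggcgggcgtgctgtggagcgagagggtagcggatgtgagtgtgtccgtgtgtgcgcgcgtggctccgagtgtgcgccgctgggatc
Neither window held the EBF core (CCC, any 2 bases and GGG) or the NF-kappaB consensus. A match is only a description of these letters. Of 32851 RefSeq promoter windows of this length, 12.4% held the TATA box, 2.98% the interferon element, 11.8% the EBF core and 7.25% the NF-kappaB consensus. Windows were found for 41 of the 55 members, 45 windows in all, of which 13 held the TATA box, 2 the interferon element, 5 the EBF core and 11 the NF-kappaB consensus.

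**Figure D3:**
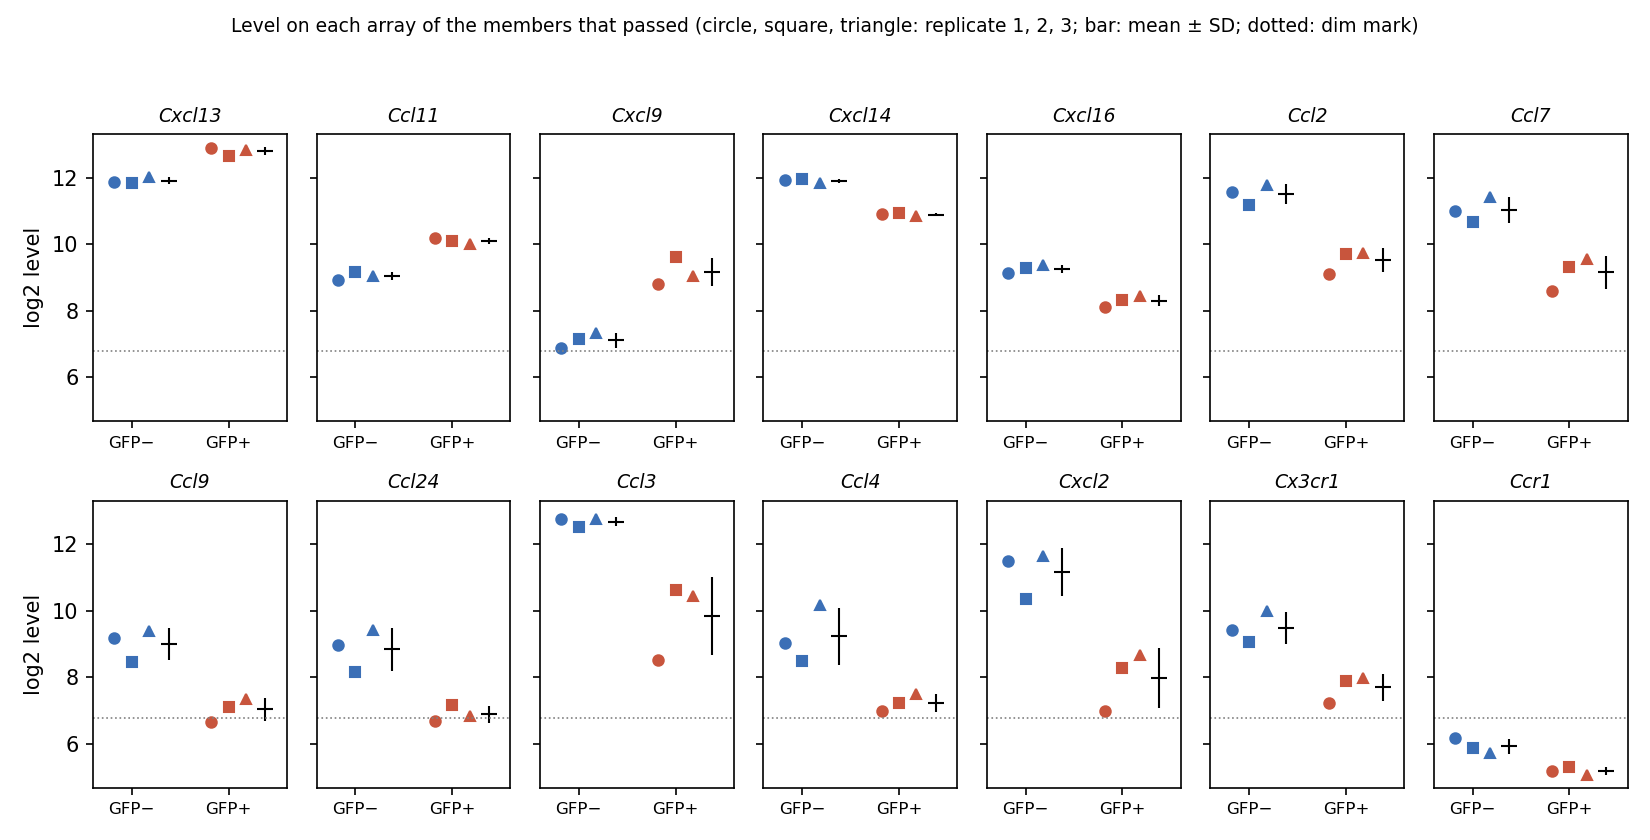
Log2 level on each array of the 14 chemokine genes that passed, with GFP-negative samples in blue, GFP-positive samples in red and the symbol giving the replicate. Bars are the mean ± SD of 3 arrays and the dotted line is the dim mark at 6.78. No gene has overlapping groups, Cxcl14 and Ccl11 have narrow spreads, and GFP-positive replicate 1 lies far below the other GFP-positive arrays in Ccl3.

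Of the 5 CC chemokines grouped here as monocyte attracting, 2 fell (Ccl2 and Ccl7), 1 rose (Ccl11, an eosinophil attractant) and 2 did not pass. Ccl2, the main monocyte attractant and ligand of Ccr2, was at 11.56, 11.18 and 11.78 in GFP-negative and 9.10, 9.70 and 9.73 in GFP-positive samples. It fell by 1.99 ± 0.214 on the log2 scale (3.98-fold, adjusted p = 0.00366). Ccl7, another Ccr2 ligand, was at 10.99, 10.66 and 11.42 against 8.60, 9.32 and 9.54 (−1.87 ± 0.281, 3.66-fold, adjusted p = 0.0122). The groups did not overlap in either gene. The call of Ccl7 ended without GFP-negative replicate 1 or GFP-positive replicate 2 (adjusted p up to 0.0517).

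Ccl11, the eosinophil attractant eotaxin that acts on Ccr3, went the other way. It was at 8.93, 9.15 and 9.03 in GFP-negative and 10.20, 10.10 and 10.01 in GFP-positive samples, a rise of 1.07 ± 0.0782 (2.09-fold, adjusted p = 0.000969). The gap between the groups was wide against their spreads of 0.108 and 0.0923 (SD, n = 3). Ccl12, a further Ccr2 ligand, was at 5.91, 5.05 and 6.38 against 4.82, 4.79 and 4.94, below the dim mark on all arrays (−0.93 ± 0.307, adjusted p = 0.166). It passed without GFP-negative replicate 2 (adjusted p = 0.0138). Ccl8 was equally below the mark and changed by −0.02 ± 0.0551 (adjusted p = 0.911).

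These genes are neighbours. In the RefSeq annotation Ccl2, Ccl7, Ccl11, Ccl12, Ccl8 and Ccl1 follow each other as protein-coding genes on chromosome 11 with no other between them. Along that row the changes were −1.99, −1.87, 1.07, −0.93, −0.02 and −0.02, so the gene that rose stood between a gene that fell and one that did not pass.

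Of the 6 CC chemokines grouped here as macrophage inflammatory, the eotaxin Ccl24 among them, 4 fell, none rose and 2 did not pass. Ccl3, known as macrophage inflammatory protein 1 alpha and a ligand of Ccr1, was at 12.75, 12.52 and 12.75 in GFP-negative and 8.51, 10.61 and 10.44 in GFP-positive samples. GFP-positive replicate 1 was far below the other GFP-positive arrays, and the group's SD was 1.17 against 0.132 in GFP-negative samples. The change was −2.82 ± 0.528 (7.07-fold, adjusted p = 0.0276) and −2.15 without GFP-positive replicate 1. The call ended without any 1 of the GFP-negative arrays or without GFP-positive replicate 3 (adjusted p up to 0.0941).

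Ccl4, the related macrophage inflammatory protein 1 beta, was at 9.03, 8.50 and 10.18 against 6.97, 7.22 and 7.50 (−2.01 ± 0.403, 4.02-fold, adjusted p = 0.0348). Ccl9, a mouse chemokine that acts on Ccr1, was at 9.19, 8.47 and 9.38 against 6.66, 7.11 and 7.33 (−1.98 ± 0.267, 3.94-fold, adjusted p = 0.00854). Ccl24, or eotaxin-2, a Ccr3 ligand, was at 8.96, 8.15 and 9.41 against 6.67, 7.16 and 6.83 (−1.95 ± 0.309, 3.87-fold, adjusted p = 0.0151). In all 3 genes the GFP-positive arrays, between 6.66 and 7.50, lay near the dim mark and below every GFP-negative array. Only the call of Ccl9 held without each array in turn (adjusted p up to 0.0449). Those of Ccl4 and Ccl24 ended without GFP-negative replicate 1 or any GFP-positive array (adjusted p up to 0.142 and 0.0769).

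Ccl6, a mouse chemokine of macrophages, was below the dim mark on all arrays, at 5.85, 5.62 and 6.29 against 5.08, 5.23 and 5.36. The groups did not overlap, and its change of −0.70 ± 0.171 passed with the replicate block alone or with array weights (adjusted p = 0.0678, 0.022 with the block and 0.0456 with weights). Ccl5, which draws T cells and monocytes, was at 6.32, 6.39 and 6.90 against 6.35, 6.28 and 6.11 (−0.29 ± 0.158, adjusted p = 0.427). Ccl5, Ccl9, Ccl6, Ccl3 and Ccl4 are also a row of neighbours on chromosome 11, where all 5 changes were below 0 and 3 passed. The annotated spans of Ccl3 and Ccl4 overlap. Ccl24 lies on chromosome 5 beside Ccl26, which changed by −0.08 ± 0.111 (adjusted p = 0.779).

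Of the 5 neutrophil attracting CXC chemokines, only Cxcl2 passed. Cxcl2, an inflammatory ligand of Cxcr2, had the largest change of any member. It was at 11.51, 10.34 and 11.63 in GFP-negative and 6.98, 8.28 and 8.68 in GFP-positive samples, −3.18 ± 0.511 (9.09-fold lower, adjusted p = 0.0159). The groups did not overlap although their SDs were 0.711 and 0.89. The call ended without GFP-negative replicate 1 or 3 or GFP-positive replicate 2 (adjusted p up to 0.0641). Cxcl1, another Cxcr2 ligand, was at 8.60, 8.61 and 9.54 against 7.99, 8.59 and 8.52 (−0.55 ± 0.287, adjusted p = 0.402). Its groups were separated by less than their spreads. Cxcl3, Cxcl5 and Cxcl15 were below the dim mark on all arrays, with changes of −0.25, 0.04 and −0.22 (adjusted p 0.397, 0.851 and 0.272).

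Of 9 neutrophil markers, 8 were below the dim mark on all arrays, S100a8 and S100a9 among them, and the median change was −0.05. The other, the growth factor receptor Csf3r, fell by 0.69 ± 0.143 (adjusted p = 0.0393), a call that ended whichever array was left out (adjusted p up to 0.112). With the replicate block 1 dim marker, Ly6g, passed as higher (0.26, adjusted p = 0.0431). The log2 of their summed level ran from 9.08 to 9.29 in GFP-negative and 8.93 to 9.13 in GFP-positive samples. The promoter window of Cxcl2, at chr5:90903649-90903898 on the plus strand, is shown because this gene changed most. Its capitals mark 2 overlapping matches of the NF-kappaB consensus, 97 and 96 bases before the start.
Cxcl2: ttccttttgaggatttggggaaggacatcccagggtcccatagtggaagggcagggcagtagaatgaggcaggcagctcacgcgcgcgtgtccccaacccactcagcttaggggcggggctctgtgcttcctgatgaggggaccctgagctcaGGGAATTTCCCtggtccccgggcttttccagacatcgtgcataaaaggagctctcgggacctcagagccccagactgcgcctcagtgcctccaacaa
Cxcl3, Cxcl15, Cxcl1 and Cxcl2 are neighbours on chromosome 5, and the NF-kappaB consensus was also found in the windows of Cxcl1 and Cxcl3, which did not pass.

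Of the 3 interferon-induced CXC chemokines, all ligands of Cxcr3, 1 rose and none fell. Cxcl9 was at 6.87, 7.13 and 7.31 in GFP-negative and 8.81, 9.62 and 9.05 in GFP-positive samples. It rose by 2.05 ± 0.216 (4.15-fold, adjusted p = 0.00344), with GFP-negative arrays near the dim mark and every GFP-positive array above them. Cxcl10 was at 10.53, 9.20 and 11.39 against 8.40, 9.27 and 9.10, and its groups overlapped through GFP-negative replicate 2. Its change of −1.46 ± 0.535 did not pass (adjusted p = 0.216) but passed without that array (adjusted p = 0.0445). Cxcl11 lay below the dim mark on all arrays (−0.10 ± 0.0982, adjusted p = 0.683).

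Cxcl9 and Cxcl10 are commonly induced together by interferon gamma, so their windows are shown side by side. Both are on the minus strand, Cxcl9 at chr5:92328080-92328329 and Cxcl10 at chr5:92348890-92349139. The capitals of Cxcl9 mark TATAAA, 195 bases before the start. Those of Cxcl10 mark the interferon element, 213 bases before the start, and the NF-kappaB consensus at 159, 104 and 103 bases, the last 2 overlapping each other and an EBF core at 96 bases.
Cxcl9: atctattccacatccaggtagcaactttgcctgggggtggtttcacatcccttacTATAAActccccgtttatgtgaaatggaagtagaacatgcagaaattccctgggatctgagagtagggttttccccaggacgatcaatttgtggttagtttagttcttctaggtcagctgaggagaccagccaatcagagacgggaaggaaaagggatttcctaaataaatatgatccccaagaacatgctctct
Cxcl10: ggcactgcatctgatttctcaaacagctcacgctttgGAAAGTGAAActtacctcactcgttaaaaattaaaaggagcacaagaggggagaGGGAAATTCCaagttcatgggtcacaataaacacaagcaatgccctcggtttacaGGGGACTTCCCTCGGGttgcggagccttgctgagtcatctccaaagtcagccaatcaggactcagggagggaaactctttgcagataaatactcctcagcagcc
The Cxcl9 window had no match of the interferon element, the NF-kappaB consensus or the EBF core in these letters. The annotated span of Cxcl10 overlaps that of Art3.

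Genes outside the chemokines that interferon induces were set beside Cxcl9. Of 21 such interferon target genes, 2 fell, 1 rose and 18 did not pass, with a median change of −0.04, and with the replicate block 3 fell and none rose. However, 10 of the 21 were below the dim mark on all arrays, where a change would be hard to see. Ifit2, an antiviral RNA-binding protein, was at 8.58, 8.57 and 8.73 against 8.09, 8.13 and 8.22 (−0.48 ± 0.0679, adjusted p = 0.00981). Its call ended without GFP-positive replicate 1 or 2 (adjusted p up to 0.052). Tap1, a peptide transporter, fell by 0.43 ± 0.0959 (adjusted p = 0.0499). That call ended whichever array was left out (adjusted p up to 0.146) and with quantile normalization, array weights or another eBayes setting. Gbp4, a guanylate-binding protein, rose by 0.79 ± 0.167 (adjusted p = 0.0409) with both group means below the dim mark. That call ended with the replicate block (0.0515) and without any array but GFP-positive replicate 1 (adjusted p up to 0.12). Gbp7 changed by −0.95 ± 0.224 (adjusted p = 0.0601, 0.0422 with the block). It also passed without dim genes (0.0427), with array weights (0.0401) and without GFP-negative replicate 2 (0.0203). It did not pass with median centring (0.0517), quantile normalization or another eBayes setting.

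Of the 9 remaining chemokines, 1 fell. Cxcl16, a membrane-bound chemokine and scavenger receptor that binds Cxcr6, was at 9.13, 9.28 and 9.36 in GFP-negative and 8.11, 8.32 and 8.43 in GFP-positive samples. It fell by 0.97 ± 0.101 (1.96-fold, adjusted p = 0.00336), and its groups did not overlap. Its lowest GFP-negative array was replicate 1 and not replicate 2. Its annotated span overlaps that of Zmynd15. Cx3cl1, the membrane-bound ligand of Cx3cr1, was at 6.81, 7.50 and 7.005 against 6.74, 6.81 and 6.81 (−0.32 ± 0.166, adjusted p = 0.403). The other 7, Ccl1, Ccl17, Ccl20, Ccl22, Ccl26, Cxcl17 and Xcl1, were below the dim mark on all arrays and changed by −0.09 to 0.08 with adjusted p from 0.561 to 0.98.

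Of the 21 receptors 2 fell and none rose, and of the 34 ligands 9 fell and 3 rose, a difference in shares that was not tested. Of 8 CXC, CX3C and XC receptors, Cx3cr1 fell. Cx3cr1, the fractalkine receptor of monocytes and macrophages, was at 9.42, 9.05 and 10.005 in GFP-negative and 7.24, 7.89 and 7.98 in GFP-positive samples (−1.79 ± 0.285, 3.45-fold lower, adjusted p = 0.0155). The groups did not overlap, and the call ended without GFP-negative replicate 1 or GFP-positive replicate 1 or 2 (adjusted p up to 0.0574). Cxcr4, the receptor of Cxcl12, was at 8.68, 9.27 and 8.97 against 9.22, 9.64 and 9.47. These arrays overlapped between the groups, yet each GFP-positive array was above the GFP-negative one of the same number. The change of 0.47 ± 0.169 did not pass (adjusted p = 0.205) and passed with the replicate block (0.0104).

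Of 9 CC receptors, Ccr1 fell. Ccr1, a receptor of Ccl3 and Ccl9 on myeloid cells, was at 6.18, 5.87 and 5.72 against 5.19, 5.31 and 5.07, below the dim mark on every array. The groups did not overlap (−0.73 ± 0.126, 1.66-fold lower, adjusted p = 0.0205). Its call ended without GFP-negative replicate 2 or any GFP-positive array (adjusted p up to 0.0885), and GFP-negative replicate 2 was not its lowest array. Ccr7, the receptor that leads cells to lymph nodes, differed least, at 7.67, 7.73 and 7.66 against 7.70, 7.70 and 7.70 (0.01 ± 0.049, adjusted p = 0.955). Ccr2 changed by −0.28 ± 0.0844 without overlap (adjusted p = 0.134), and the 6 others, Ccr3, Ccr4, Ccr6, Ccr8, Ccr9 and Ccr10, changed by −0.20 to 0.11.

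The receptors of the ligands that passed were mostly dim. Ccr2, the receptor of Ccl2 and Ccl7, Ccr3, that of Ccl11 and Ccl24, Cxcr5, that of Cxcl13, and Cxcr6, that of Cxcl16, were below the dim mark on all 6 arrays, with changes of −0.28, 0.03, 0.00 and −0.06. Cxcr3, the receptor of Cxcl9, was at 7.33, 7.29 and 7.49 against 7.10, 7.36 and 7.26 (−0.13 ± 0.0889, adjusted p = 0.536). Cxcr2, the receptor of Cxcl2, was at 6.90, 6.87 and 7.03 against 6.82, 6.90 and 6.68 (−0.13 ± 0.0779, adjusted p = 0.46). Cxcr1 and Xcr1 were below the mark and changed by −0.05 and −0.07. Ccr6 and Ccr9 held 1 and the same value on all 3 GFP-negative arrays, 5.50 and 4.85.

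None of the 4 atypical receptors passed. Ackr3, which takes up Cxcl12, was at 9.58, 9.95 and 9.90 in GFP-negative and 9.39, 9.39 and 9.70 in GFP-positive samples, with overlapping groups (−0.32 ± 0.128, adjusted p = 0.264). Ackr4, which takes up Ccl25 and the homeostatic ligands of Ccr7, was below the dim mark on all arrays, at 5.15, 5.04 and 5.32 against 5.53, 5.49 and 5.54. Its groups did not overlap (0.35 ± 0.079, adjusted p = 0.0512), and the gene reached the threshold under the replicate block (0.0333), with median centring (0.0275) and without GFP-negative replicate 3 (0.0253). The threshold was also reached with quantile normalization (0.0499) and an eBayes trend (0.0456), but not with a robust eBayes (0.0535) or array weights (0.063). Ackr1, which binds many chemokines on vessels and red cells, was at 7.83, 7.51 and 7.68 against 7.38, 7.41 and 7.48 (−0.25 ± 0.0888, adjusted p = 0.204). Ackr2, a scavenger of inflammatory CC chemokines, changed by −0.19 ± 0.139 (adjusted p = 0.567).

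Genes that belong to the system under other names gave 1 lower call of 9. Pf4, a CXC chemokine of platelets that mouse macrophages also make, was at 10.17, 9.77 and 10.85 in GFP-negative and 6.53, 7.69 and 7.91 in GFP-positive samples (−2.89 ± 0.415, 7.4-fold lower, adjusted p = 0.0106). Its lowest arrays were GFP-negative replicate 2 and GFP-positive replicate 1, the same as for the mean of the macrophage markers. The other 3 measured platelet markers, Itga2b, Gp9 and Ppbp, did not pass and changed by −0.10, 0.03 and −0.20. Ccrl2, a receptor-like protein that presents chemerin, was at 8.81, 7.96 and 9.96 against 6.09, 6.85 and 7.13 (−2.22 ± 0.511, adjusted p = 0.055, 0.0222 with the block). It also passed with median centring (0.0425), without dim genes (0.0389), with an eBayes trend (0.0462), with array weights (0.0394) and without GFP-negative replicate 2 (0.038). It did not pass with quantile normalization, averaged probe sets, a robust eBayes or any other array left out. Gpr182 and Mif changed by 0.25 and −0.12 (adjusted p 0.386 and 0.408).

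Of 34 genes of chemokine receptor signalling, 6 fell, 2 rose and 26 did not pass, with a median change of −0.17, and with the replicate block 10 fell and 2 rose. Plcb2, a phospholipase of blood cells, was at 7.79, 7.50 and 7.95 against 6.66, 6.89 and 6.76 (−0.98 ± 0.123, adjusted p = 0.0064). Rac2, the Rac GTPase of blood cells, was at 10.90, 10.40 and 11.52 against 8.72, 9.28 and 9.07 (−1.92 ± 0.284, adjusted p = 0.0117). Dock2, its activator in leukocytes, was at 8.28, 7.62 and 8.80 against 6.12, 6.67 and 6.67 (−1.75 ± 0.303, adjusted p = 0.0209). In each of these genes GFP-negative replicate 2 and GFP-positive replicate 1 were the lowest arrays, the same as for the mean of the macrophage markers. Among the other signalling genes that fell, Pik3cg and Vav1 had this order too. Ncf1 did not, at 7.58, 7.80 and 8.22 against 6.60, 6.99 and 7.09. The part of the macrophage markers was not tested. The call of Rac2 ended without GFP-positive replicate 1 or 3 (adjusted p up to 0.0592), and that of Dock2 without GFP-negative replicate 1 or any GFP-positive array (up to 0.0885). Those of Pik3cg and Vav1 ended without any array but GFP-negative replicate 2 (up to 0.14 and 0.172). For Ncf1 it ended without any array but GFP-negative replicate 1 (up to 0.108). Vav1 also did not pass with quantile normalization (0.052) or a robust eBayes (0.0508).

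The signalling genes that rose were Tiam1 and Grk6. Tiam1, a Rac activator of many cell types, was at 9.28, 9.07 and 8.93 against 10.05, 9.93 and 9.75 (0.82 ± 0.113, 1.76-fold, adjusted p = 0.00947). Its groups did not overlap, and the call ended without GFP-positive replicate 2 (adjusted p = 0.0517). Grk6, a kinase that desensitises receptors, rose by 0.25 ± 0.0532 (adjusted p = 0.0425), a call that ended whichever array was left out (adjusted p up to 0.145) and with quantile normalization (0.0533).

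Of 32 regulators of chemokine transcription, 2 fell, none rose and 30 did not pass, with a median change of −0.01, and with the block 4 fell and 1 rose. Tnf, an inflammatory cytokine that induces many chemokines, was at 10.95, 10.64 and 11.80 in GFP-negative and 7.26, 8.42 and 9.06 in GFP-positive samples (−2.88 ± 0.489, 7.37-fold lower, adjusted p = 0.0194). GFP-negative replicate 2 and GFP-positive replicate 1 were again its lowest arrays. The call of Tnf ended without GFP-negative replicate 1 or 3 or GFP-positive replicate 2 (adjusted p up to 0.0764). Tlr2, a receptor of microbial lipoproteins, was at 9.27, 8.92 and 9.36 against 8.44, 8.63 and 8.69 (−0.59 ± 0.127, adjusted p = 0.0436), and its call ended without any array but GFP-negative replicate 2 (adjusted p up to 0.158). Nfkbia, the feedback inhibitor of NF-kappaB, changed by −0.43 ± 0.121 and Relb, an NF-kappaB subunit, by 0.20 ± 0.0536 (adjusted p 0.106 and 0.0976). Relb passed as higher with median centring (0.0379) and with quantile normalization (0.0337).

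**Figure D4:**
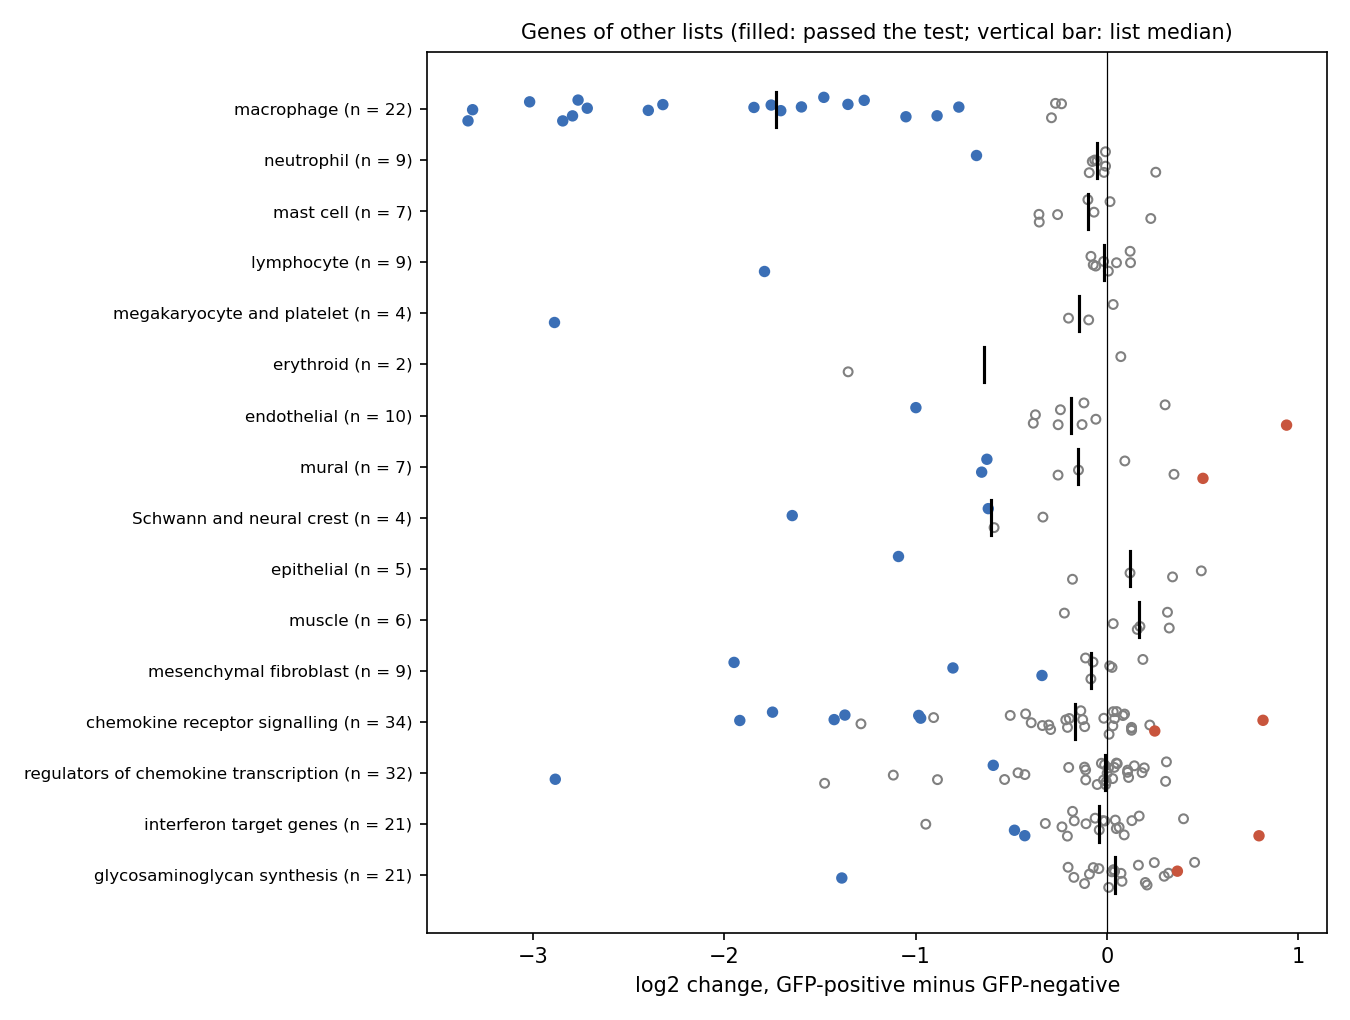
Log2 change (horizontal axis) of each measured gene of 12 cell type marker lists and 4 lists of genes that act with chemokines, filled blue where the gene fell, filled red where it rose and open where it did not pass, with a bar at each list's median. The macrophage list has its median at −1.73 with 19 of 22 genes filled blue, the erythroid and the Schwann cell list have theirs at −0.64 and −0.60 with 2 and 4 genes, and those of the other lists lie between −0.19 and 0.17.

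Markers of other cell types were counted in the same fit. Of 10 endothelial markers, Cdh5 fell (−0.998 ± 0.161, adjusted p = 0.016) and Emcn rose (0.94 ± 0.164, adjusted p = 0.0214), both vessel surface proteins. The call of Cdh5 ended without GFP-negative replicate 2 or GFP-positive replicate 2 (adjusted p up to 0.066). For Emcn it ended without GFP-negative replicate 3 or any GFP-positive array (up to 0.0943). Of 9 lymphocyte markers, Cd79b, part of the B cell receptor, fell (−1.79 ± 0.0787, adjusted p = 0.000276) and 6 were below the dim mark on all arrays. None of 7 mast cell, 6 muscle and 2 erythroid markers passed. Of 4 Schwann cell and neural crest markers 2 fell, with a median change of −0.60. They were the lipid-binding protein gene Fabp7 (−1.64 ± 0.218, adjusted p = 0.00802) and the transcription factor gene Sox10 (−0.62 ± 0.108, adjusted p = 0.021). The call of Sox10 ended without any 1 of the GFP-positive arrays (adjusted p up to 0.0924). Of 7 mural markers 2 fell and 1 rose, and of 5 epithelial markers 1 fell. With the replicate block there was 1 further call each for endothelial (Pecam1 lower, 0.0407), mast cell (Cma1 lower, 0.0145), mural (Abcc9 higher, 0.0432) and epithelial markers (Krt18 higher, 0.0413). Of 9 mesenchymal fibroblast markers, 3 fell and none rose, the surface protein Thy1 most (−1.95 ± 0.0821, adjusted p = 0.000276). Thy1 and Cd79b did not have the array order of the macrophage list. The part of these markers in the chemokine changes was not tested.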

How the data were processed

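Total RNA of sorted cells was labelled with biotin and hybridised to Affymetrix arrays, per the labels' protocols. The authors deposited log2 expression values for 41345 probe sets, made with RMA and limma per the submitters' processing notes. The log2 scale was inferred from the value range (3.41 to 14.32, array medians 6.66 to 6.71). The genome build is not given in the sources used here, nor are tool versions and filters.

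The platform table names 1 gene for 23521 probe sets, several for 1814 and none for 16010. Genes were named from the first kind only, 22180 in all, with the brightest probe set where there were several. Another 33 probe sets that list a chemokine symbol together with other genes were left out, and 10 of them list the member Ccl27a.

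The test was limma 3.58.1 (lmFit, eBayes; R 4.3.3) on all 6 arrays, with Benjamini-Hochberg adjustment over all genes. Simulated data with 200 changed genes in each of 10 runs gave back 54.8% of changes of 0.5, 89.2% of 1, 99% of 2 and 99.8% of 3 on the log2 scale, and 4.94% of the calls were false. The simulated noise was independent between genes and arrays and had no replicate effect, so these rates may not hold for the real arrays. The labels number replicates 1 to 3 in both groups. Deviations of same-numbered arrays from their group means correlated at 0.408, 0.314 and 0.519, so numbers were taken to pair arrays. Other pairs lay at −0.384 to −0.024. Deviations cancel out within a group, so positive same-numbered pairs force the others to be negative on average. The other pairs are therefore no separate evidence of pairing. Values with the replicate block are given where it changes the call of a named gene or the count of a list by over 1.5 times.

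The members, the gene lists and the alternatives were chosen with earlier results of these data known. Named genes are Ebf2, Pdgfra, every member of a role list with a member that passed, Ackr3 as one of the 8 brightest members that did not pass, and up to 4 genes with the smallest p per other list. Ackr1, Ackr2, Ackr4, Grk6, Pik3cg, Vav1, Ncf1, Itga2b, Gp9, Ppbp, Pecam1, Abcc9, Cma1, Krt18, Art3, Zmynd15 and other markers named were chosen after their values were seen. Promoters are the 250 bases before RefSeq starts. Alternatives were the block, median centring, quantile normalization, a filter on dim genes, averaged probe sets, each probe set by itself, a trended or robust eBayes, array weights, the platform's symbols, a threshold of 0.01 and leaving out each array.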

Additional observations from a re-analysis of the deposited data

How the results depend on the processing

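All 14 chemokine genes that passed had the same direction under every alternative run (223 values), and in 192 of these the call was also the same. Agreement in direction was largely fixed in advance. The block, the eBayes settings, averaged probe sets, the platform's symbols and the 0.01 threshold keep the same estimate for these genes. Their groups did not overlap, so leaving out 1 array could not reverse a sign. Averaged probe sets and the platform's symbols also left the values of these genes unchanged, so those calls nearly repeat the reported ones. Cxcl14, Cxcl13, Cxcl9, Ccl9, Ccl11, Ccl2 and Cxcl16 passed under every alternative. Leaving out 1 array gave 5 to 11 lower and 3 to 4 higher members, and 388 to 656 lower and 241 to 441 higher genes over all. Members gained a call in 16 values, spread over Ackr4, Ccl12, Ccl6, Cxcl10, Cxcl12 and Cxcr4. Higher members numbered 6 with the replicate block and 5 with median centring or an eBayes trend, against 3 in the reported fit. At an adjusted p under 0.01, 4 members were lower and all 3 higher ones remained, and over all genes 331 were lower and 208 higher. With the block 1010 genes were higher over all, against 588, and calls that pass only with it rest on a pairing read from the data. A further probe set of the epithelial marker Cdh1 changed by 0.012 (adjusted p = 0.94) where the one used fell by 1.09. The cause of these shifts was not tested, apart from the fewer arrays or the stricter threshold that some settings bring by construction. RMA normalizes across arrays, so a change common to most genes may be hidden, and without detection calls the levels below the dim mark have no set limit.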

Other observations

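Chemokines are held on heparan sulfate, and genes of its core proteins and synthesis were examined as a further list chosen with earlier results of these data known. The list also held Sulf1 and Sulf2, which remove sulfate, and the proteases Dpp4, Mmp2, Mmp9 and Mmp14. Of the 21 measured genes of this mixed list, 1 fell, 1 rose and 19 did not pass. The median change was 0.04, and with median centring 1 fell and 3 rose. Sdc4, a membrane proteoglycan that carries heparan sulfate, was at 10.07, 10.10 and 10.21 in GFP-negative and 8.70, 8.80 and 8.72 in GFP-positive samples, with no overlap (−1.39 ± 0.0616, 2.61-fold lower, adjusted p = 0.000276). Gpc1, a lipid-anchored proteoglycan, was at 10.79, 10.62 and 10.53 against 11.01, 11.03 and 10.997 (0.37 ± 0.0748, adjusted p = 0.0362). The call of Gpc1 ended without GFP-negative replicate 2 or 3 or any GFP-positive array (adjusted p up to 0.133), and also when its probe sets were averaged (0.0984). The sulfotransferase genes Hs6st2 and Hs2st1 changed by 0.46 ± 0.108 and 0.32 ± 0.0852 without overlap and did not pass (adjusted p 0.0584 and 0.0866). Hs6st2 passed with median centring (0.0289) and without dim genes (0.0416).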
